A study of Homo sapiens with 18 samples.

Results

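The acetyl-CoA supply and citrate export genes are a set of 10 enzymes and carriers. They make acetyl-CoA or a related thioester, make or export citrate, or, for ACOT12, hydrolyse acetyl-CoA. They were picked by gene symbol in the count table: ACLY, ACSS1, ACSS2, ACSS3, SLC25A1, CS, PDHA1, PDHB, DLAT and ACOT12. Each symbol matched 1 row, so the set holds 10 of the 57500 genes in the table. The rule itself uses no measured value, although the set was drawn up with earlier results of these data known.

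Acetyl-CoA does not cross the inner mitochondrial membrane. The pyruvate dehydrogenase complex turns pyruvate into acetyl-CoA inside the organelle (PDHA1 and PDHB encode the subunits of its first enzyme, and DLAT its acetyltransferase core), and citrate synthase (CS) joins that acetyl group to oxaloacetate. SLC25A1, the citrate carrier of the inner membrane, exports citrate, and ATP-citrate lyase (ACLY) splits it into acetyl-CoA in the cytosol and nucleus, where the acetyl group serves lipid synthesis and histone acetylation. Acyl-CoA synthetases make acetyl-CoA or related thioesters from short-chain acids instead: ACSS2 uses acetate in the cytosol and nucleus, ACSS1 uses acetate in mitochondria, and ACSS3 is a mitochondrial enzyme with a preference for propionate. ACOT12 is a cytosolic thioesterase that hydrolyses acetyl-CoA back to acetate.

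RNA was measured in 18 libraries of IMR90, a human lung fibroblast line, with 3 libraries in each of 6 groups. In the study's methods the cells overexpress Parkin, a ubiquitin ligase that, together with the uncoupler CCCP, sends depolarised mitochondria to autophagy. The groups were proliferating cells (Prol), cells made senescent by X-rays (Sen (IR)), and irradiated cells treated with CCCP (Sen (IR) + CCCP). A further 3 groups were irradiated and treated with CCCP and then received acetate, transfected mitochondrial DNA (mtDNA), or both. The X-ray dose was 20 Gy, CCCP was given from day 1 for 48 h, sodium acetate was used at 20 mM, and mtDNA was transfected on day 10. Acetate began on day 3 in the group with acetate alone, and its start in the group with both is not stated. No group in the series had acetate or mtDNA without CCCP, and no proliferating group had CCCP. The methods describe no transfection without mtDNA, so changes with mtDNA and with the transfection itself cannot be told apart. The study describes the replicates of its in vitro work as independent experiments, while the labels of the 3 libraries of a group name no culture, and all p-values measure the spread between these libraries.

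The libraries held 24624886 to 46224280 counts (median 29620505.5). The 13 protein-coding genes of mtDNA took 1.75% to 2.89% of counts in the 6 Prol and Sen (IR) libraries and 0.0461% to 0.237% in the 12 libraries of CCCP-treated cells. All 7 fibroblast markers had counts in every library, at levels that differed between groups. VIM, an intermediate filament gene, lay at 2667 to 4091 TPM (a unit scaled to gene length and library) and THY1 at 86.8 to 275. The collagen gene COL1A1 went from 5303 to 6519 TPM in Prol to 2413 to 2938 in Sen (IR) and 267 to 495 in the CCCP-treated groups, COL1A2 ranged from 281 to 4982 TPM and COL3A1 from 60.9 to 1596, both also lower in every CCCP-treated library than in the Prol and Sen (IR) libraries, and PDGFRB ranged from 40.0 to 171. FAP was at 62.2 to 78.2 TPM in Prol and Sen (IR), 34.5 to 40.1 with CCCP without acetate and 8.88 to 12.7 with acetate. Of 6 markers of other cell types, the leukocyte and endothelial genes PTPRC, CD3E, PECAM1 and CDH5 stayed at or below 0.156 TPM, and the epithelial CDH1 at or below 0.211. The epithelial EPCAM was above these in every library, at 1.38 to 4.76 TPM without acetate and 0.612 to 1.32 with it. The cell-cycle inhibitor gene CDKN1A lay at 828 to 916 TPM in Prol, 1259 to 1348 in Sen (IR), 1849 to 2030 with CCCP with or without mtDNA, and 2680 to 3095 in the groups with acetate. The proliferation marker MKI67 lay at 16.9 to 18.1 TPM in Prol and 4.25 to 5.63 in Sen (IR), then at 9.19 to 13.5 in the CCCP-treated groups without acetate and at 1.06 to 2.33 in those with acetate. These markers therefore moved along the same contrasts as the genes described here, and their part in those changes was not tested. RNA was taken from whole cultures, in which fewer cells of a type and less RNA per cell cannot be told apart.

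The letters upstream of 6 members are shown because ACSS2, SLC25A1, PDHA1 and PDHB varied together across the libraries in counts scaled to library size, while CS and ACLY are the genes on either side of citrate export. In TPM, PDHA1 took another course with CCCP, as given below. Each run is the part of the RefSeq promoter table's window, within 250 bases before the start site nearest the main transcript's start, that carries no annotated exon. It is given 5′ to 3′ on the gene's own strand with GRCh38.p14 coordinates. Capitals mark a GC box (GGGCGG or its reverse complement), an NF-Y box (CCAAT or ATTGG) or an E-box (CACGTG).
ACSS2, chr20:34876362-34876571, plus strand: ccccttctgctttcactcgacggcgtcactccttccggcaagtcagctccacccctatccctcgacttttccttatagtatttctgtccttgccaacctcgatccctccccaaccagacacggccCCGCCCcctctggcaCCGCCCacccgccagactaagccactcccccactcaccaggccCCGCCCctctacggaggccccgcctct
SLC25A1, chr22:19178740-19178986, minus strand: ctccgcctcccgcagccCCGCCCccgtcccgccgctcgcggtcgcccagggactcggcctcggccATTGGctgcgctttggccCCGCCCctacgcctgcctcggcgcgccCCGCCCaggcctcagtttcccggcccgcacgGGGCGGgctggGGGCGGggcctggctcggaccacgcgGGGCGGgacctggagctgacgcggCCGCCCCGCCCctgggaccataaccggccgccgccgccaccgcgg
PDHA1, chrX:19343677-19343892, plus strand: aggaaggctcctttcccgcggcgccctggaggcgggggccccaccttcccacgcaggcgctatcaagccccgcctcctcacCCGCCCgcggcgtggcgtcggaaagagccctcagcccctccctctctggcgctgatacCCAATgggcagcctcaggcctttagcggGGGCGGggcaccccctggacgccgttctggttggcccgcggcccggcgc
PDHB, chr3:58433858-58434082, minus strand: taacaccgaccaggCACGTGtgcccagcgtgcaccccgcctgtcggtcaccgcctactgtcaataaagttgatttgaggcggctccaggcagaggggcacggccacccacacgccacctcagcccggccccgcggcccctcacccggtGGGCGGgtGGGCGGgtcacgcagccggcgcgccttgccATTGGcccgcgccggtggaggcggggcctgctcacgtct
CS, chr12:56300392-56300580, minus strand: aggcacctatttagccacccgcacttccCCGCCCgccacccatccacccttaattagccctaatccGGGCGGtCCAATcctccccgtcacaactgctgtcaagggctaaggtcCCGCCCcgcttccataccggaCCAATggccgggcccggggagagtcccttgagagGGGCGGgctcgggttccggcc
ACLY, chr17:41919023-41919201, minus strand: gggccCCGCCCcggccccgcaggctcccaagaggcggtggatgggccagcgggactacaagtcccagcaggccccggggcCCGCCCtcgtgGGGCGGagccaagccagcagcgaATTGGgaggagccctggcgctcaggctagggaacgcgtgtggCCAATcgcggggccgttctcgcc

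Of the 10 members, 9 had a promoter in that table and ACSS3 had none. Within the whole 250-base window a GC box occurred in 8 of 9 members (DLAT was the exception) and in 42.6% of all 35116 windows of that length. An NF-Y box occurred in 5 of 9 (ACLY, SLC25A1, CS, PDHA1 and PDHB) and in 32% of all windows, and an E-box in 1 of 9 (PDHB) and in 6.34% of all windows. The sterol regulatory element letters TCACNCCAC were in 0 of 9 and in 0.883% of all windows. Both strands were searched, overlapping matches were counted, and a match describes letters only. ACSS2, SLC25A1, PDHA1 and PDHB, shown above, had GC boxes in common, whereas the NF-Y letters were in SLC25A1, PDHA1 and PDHB but not in ACSS2, and CS and ACLY had both motifs as well.

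All 10 members are protein-coding genes in the GENCODE v44 annotation of GRCh38. For the cytosolic enzymes and the carrier it places ACLY (ENSG00000131473) at chr17:41866917-41930542 (minus), ACSS2 (ENSG00000131069) at chr20:34872146-34927962 (plus) and SLC25A1 (ENSG00000100075) at chr22:19175581-19178739 (minus). The mitochondrial genes are CS (ENSG00000062485) at chr12:56271699-56300391 (minus), PDHA1 (ENSG00000131828) at chrX:19343893-19361718 (plus), PDHB (ENSG00000168291) at chr3:58427630-58433857 (minus) and DLAT (ENSG00000150768) at chr11:112025408-112064404 (plus). The remaining members are ACSS1 (ENSG00000154930) at chr20:25006230-25058980 (minus), ACSS3 (ENSG00000111058) at chr12:80936414-81261210 (plus) and ACOT12 (ENSG00000172497) at chr5:81329996-81394179 (minus). Several overlap exons of other genes on the opposite strand. Among them, ACSS3 shares 294 bases with LIN7A (410 to 2908 counts in a library) and 1686 with PPFIA2 (0 to 6 counts). DLAT shares 1004 bases with PIH1D2 (8 to 55 counts) and PDHA1 956 bases with MAP3K15 (0 to 12 counts). On its own strand, CS shares 220 bases with the protein-coding gene ENSG00000144785 (7 to 56 counts).

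ACLY was the most abundant member in every group, with mean levels of 246 to 356 TPM. In Prol it was followed by CS (104 TPM), SLC25A1 (96.8), PDHB (81.2), DLAT (59.7) and PDHA1 (48.9), and then by ACSS2 at 23.3 TPM and ACSS3 at 4.33 TPM. ACSS1 and ACOT12 were close to the limit of detection. ACSS1 had 2 to 14 counts in a library (0.0310 to 0.169 TPM) and did not pass the filter on low counts, and ACOT12 had 0 to 21 counts (at most 0.798 TPM) and passed it. ACOT12 passed only through libraries of Prol and Sen (IR), the groups where its mean was highest. Its calls are counted with those of the other members below, but are a description and no support for a change. The RNA of the acetate-using enzymes was thus mostly that of ACSS2, as ACSS1 stood at 0.652% ± 0.0213 (SD, n = 3) of ACSS2 in Prol on the TPM scale and at 0.332% to 0.989% in the group means of the other groups.

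**Figure D1:**
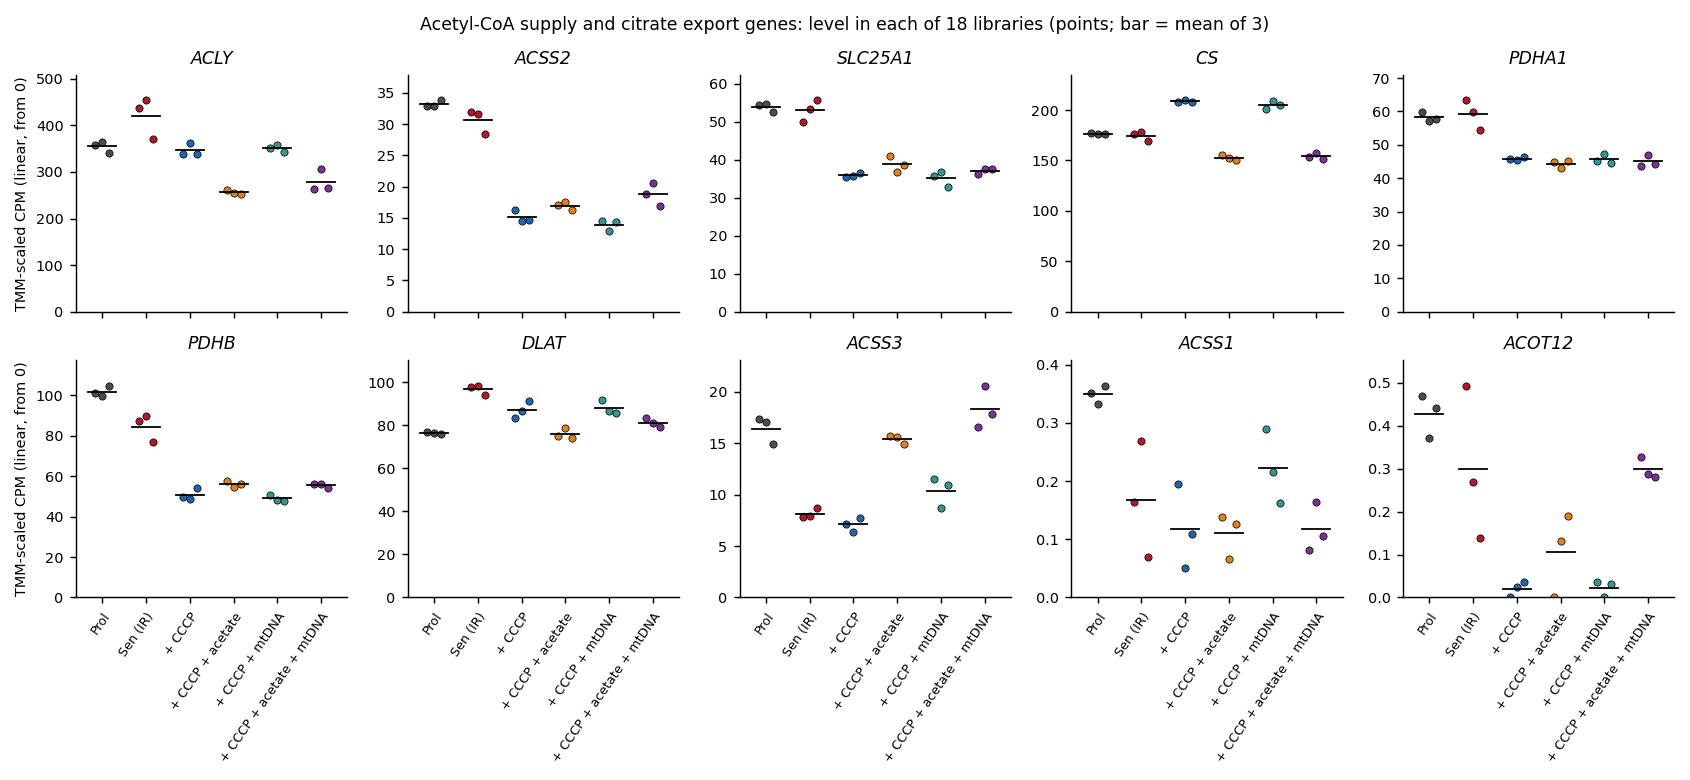
Level of each of the 10 genes in each of 18 libraries, in TMM-scaled CPM (counts scaled to library size, linear axis from 0, a separate scale for each gene), by group. Points are libraries and bars are means of 3; ACSS2, SLC25A1 and PDHB sit lower in all 12 CCCP-treated libraries than in the 6 others, CS is highest in the CCCP-treated groups without acetate, and ACSS1 and ACOT12 lie under 0.5 CPM.

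With irradiation ACLY and DLAT rose, and ACSS3 and PDHB fell. Below, levels compared across libraries are TMM-scaled CPM (counts scaled to the effective library size), and differences are log2 fold changes ± SE from edgeR's quasi-likelihood test with Benjamini-Hochberg adjustment over 16994 genes, called at an adjusted p under 0.05. In Sen (IR) over Prol, 2 of the 9 members tested rose and 2 fell, against a background in which 56.7% of all genes tested were called (26.7% higher and 29.9% lower). ACLY was measured at 357, 365 and 341 CPM in Prol and at 438, 454 and 369.8 CPM in Sen (IR). The groups did not overlap, and the difference was 0.25 ± 0.065 (adjusted p = 0.00279). DLAT, the acetyltransferase subunit, stood at 76.9, 76.5 and 76.2 CPM in Prol and at 97.9, 98.5 and 94.0 CPM in Sen (IR), a difference of 0.34 ± 0.045 (adjusted p = 1.36e-06). The other PDH gene to move went the opposite way: PDHB was at 101, 99.5 and 105 CPM in Prol and at 87.1, 89.6 and 76.7 CPM in Sen (IR), a difference of -0.27 ± 0.054 (adjusted p = 0.00021).

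ACSS3 changed most of the 9 members tested in this contrast. It stood at 17.3, 17.0 and 14.9 CPM in Prol and at 7.84, 7.91 and 8.68 CPM in Sen (IR), a difference of -1.01 ± 0.10 (adjusted p = 3.07e-08). ACSS3 shares exon bases on the opposite strand with LIN7A, a scaffold protein gene, and whether counting used the strand is not given in the sources used here for these libraries. In the same contrast LIN7A changed by -2.10 ± 0.073 on the log2 scale (mean 75.3 CPM in Prol and 17.6 CPM in Sen (IR)), and its part in the ACSS3 counts was not tested.

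The citrate export step did not pass the test with irradiation. SLC25A1 stood at 54.4, 54.6 and 52.5 CPM in Prol and at 49.9, 53.2 and 55.7 CPM in Sen (IR), with a 95% interval of the log2 difference from -0.14 to 0.09. CS, at 176 to 177 CPM in Prol and 169 to 178 CPM in Sen (IR), had an interval from -0.10 to 0.07, and PDHA1, at 57.3 to 59.9 and 54.4 to 63.5 CPM, one from -0.08 to 0.13. The ACSS2 libraries were all lower in Sen (IR) (32.0, 31.6 and 28.4 CPM against 32.9, 32.9 and 33.9 CPM), but the difference of -0.12 ± 0.071 was not called (adjusted p = 0.173). ACSS1 had 9, 9 and 14 counts in Prol and 7, 7 and 2 in Sen (IR), a rate ratio of 0.466 (exact 95% interval 0.239 to 0.875, counting error only). ACOT12 had 12, 10 and 17 counts in Prol and 21, 7 and 4 in Sen (IR), so that its groups overlapped.

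With CCCP most members were called, as were most of all genes tested. In Sen (IR) + CCCP over Sen (IR), 1 member rose and 7 fell of 9 tested, when 65.2% of all genes tested were called (34% higher and 31.3% lower), and the median log2 difference of the members was -0.37 against 0.03 for all genes. The libraries of both groups did not overlap for 9 of 9 members, which was true of 67.7% of all genes tested. This count depends on the scaling between libraries. The median tested gene was 0.35 higher on the log2 scale in the deposited TPM of the CCCP-treated group and 0.20 higher when counts were scaled by library totals alone. With TPM in limma the split of calls became 3 higher and 4 lower, when 12328 of 16994 genes were called. With total counts it became 2 higher and 5 lower, when 11666 were called. The changes below are therefore relative to the typical gene, and each direction that turned is named.

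ACSS2, the cytosolic and nuclear acetate-activating enzyme, fell by the largest amount among the members other than ACOT12. It stood at 32.0, 31.6 and 28.4 CPM in Sen (IR) and at 16.3, 14.5 and 14.7 CPM with CCCP, a difference of -1.02 ± 0.074 (adjusted p = 6.5e-11) and a fold of 0.493. PDHB dropped from 87.1, 89.6 and 76.7 CPM to 49.6, 48.8 and 54.2 CPM, a difference of -0.73 ± 0.055 (adjusted p = 1.06e-10). The citrate carrier gene SLC25A1, not called on irradiation, was at 35.5, 35.8 and 36.5 CPM with CCCP, all below the 49.9 to 55.7 CPM of Sen (IR). Its difference was -0.56 ± 0.055 (adjusted p = 8.64e-09). These 3 genes were also called lower in TPM, by smaller amounts: -0.56 for ACSS2, -0.30 for PDHB and -0.13 for SLC25A1 (limma, adjusted p = 1.79e-06, 2.69e-05 and 0.032).

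CS, which makes the citrate that SLC25A1 exports, moved the other way. It rose from 176, 178 and 169 CPM to 208, 210.0 and 208 CPM, by 0.26 ± 0.039 (adjusted p = 4.18e-06), and in TPM by 0.68 (limma, adjusted p = 2.11e-12). PDHA1 went from 63.5, 59.7 and 54.4 CPM to 45.7, 45.5 and 46.4 CPM, a difference of -0.37 ± 0.052 (adjusted p = 1.89e-06), which in TPM turned to 0.06 and was not called. ACLY went from 438, 454 and 369.8 CPM back to 339, 363 and 339 CPM, a difference of -0.28 ± 0.065 (adjusted p = 0.00076), which turned in TPM to 0.15 (limma, adjusted p = 0.0364). DLAT went from 97.9, 98.5 and 94.0 CPM to 83.6, 86.6 and 91.3 CPM, a difference of -0.15 ± 0.045 (adjusted p = 0.00533), and it turned in both TPM (0.27, limma, adjusted p = 9.81e-06) and total counts (0.11, adjusted p = 0.0359). When TPM was set relative to the median gene, ACLY, DLAT and PDHA1 were again lower (-0.20, -0.08 and -0.29). For ACLY and DLAT, the direction of the CCCP change thus differed between scales.

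ACOT12 was nearly absent after CCCP. It had 21, 7 and 4 counts in Sen (IR) and 0, 1 and 1 with CCCP, a rate ratio of 0.0593 (exact 95% interval 0.00688 to 0.232, counting error only), and was called lower (edgeR, adjusted p = 0.000368). It is among the 7 members counted as lower, but it passed the filter only through groups where it is high. When only the groups compared were fitted, 8 members were tested. ACSS1 had 7, 2 and 3 counts with CCCP, with a ratio to Sen (IR) of 0.711 (0.307 to 1.60). ACSS3 stood at 7.16, 6.39 and 7.73 CPM, a difference from Sen (IR) of -0.20 ± 0.11 that was not called (adjusted p = 0.112) and turned to 0.16 in TPM and 0.06 in total counts, while the overlapping LIN7A rose by 0.73 ± 0.075.

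Set against proliferating cells, the CCCP-treated cells had 2 members higher and 6 lower of 9, when 69.2% of all genes tested were called (35.1% higher and 34.1% lower). ACSS2 (-1.13 ± 0.074), ACSS3 (-1.21 ± 0.10), PDHB (-1.0 ± 0.055), SLC25A1 (-0.58 ± 0.055) and PDHA1 (-0.35 ± 0.052) were lower than in Prol, as was ACOT12 by counts. CS (0.24 ± 0.039) and DLAT (0.19 ± 0.045) were higher. ACLY, at 339 to 363 CPM against 341 to 365 CPM in Prol, was not called (-0.03 ± 0.065), but its TPM was 0.47 higher. PDHA1 also turned in TPM (0.16) and in total counts (0.01, not called), and SLC25A1 kept its direction there without passing the test (-0.07, limma, adjusted p = 0.189). The split in TPM was 4 higher and 4 lower, the median gene being 0.42 higher.

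**Figure D2:**
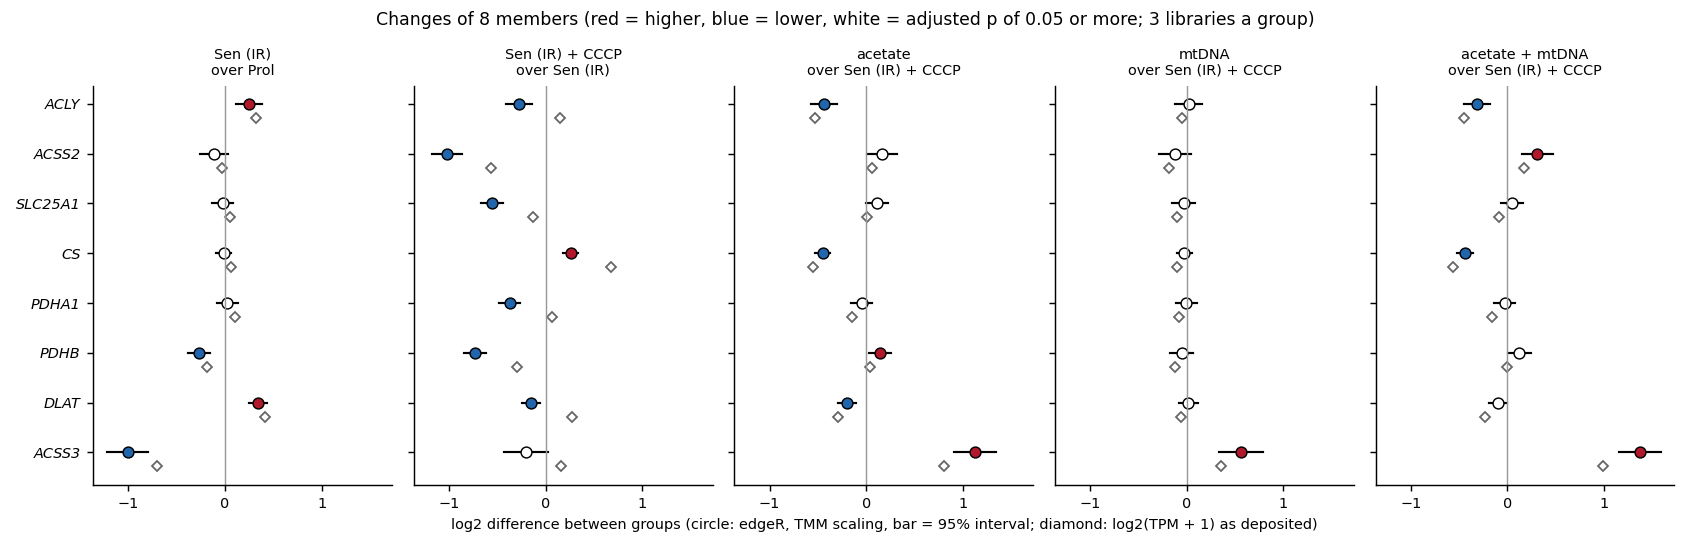
Log2 difference of 8 members (ACSS1 and ACOT12 had too few counts to draw) in 5 comparisons of 3 libraries with 3. Circles are edgeR values with TMM scaling and bars of the 95% interval (red higher, blue lower, white not called), and diamonds are differences of log2(TPM + 1). In CCCP over Sen (IR), ACSS2, PDHB and SLC25A1 lie below 0 and CS above it on both scales, while the ACLY, DLAT, PDHA1 and ACSS3 diamonds turn to above 0.

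Acetate given after mitochondrial clearance was set against the same CCCP-treated cells. Of 9 members, 3 rose and 3 fell (57.1% of all genes tested were called, 28.8% higher and 28.3% lower), with a member median of 0.11 and 0.01 for all genes. The median gene shifted by -0.07 in TPM here. ACLY, the citrate-dependent source of acetyl-CoA, was at 262, 256 and 252 CPM with acetate against 339, 363 and 339 CPM without it, a difference of -0.43 ± 0.066 (adjusted p = 6.81e-06). CS stood at 155, 152 and 150.2 CPM against 208, 210.0 and 208 CPM, a difference of -0.45 ± 0.039 (adjusted p = 1.63e-09). Neither gene's groups overlapped, and with acetate both lay under their Prol and Sen (IR) levels in CPM, whereas in TPM the CS mean (119) stayed above them (104 and 109). DLAT fell less, from 83.6, 86.6 and 91.3 CPM to 75.1, 78.7 and 74.0 CPM (-0.20 ± 0.045, adjusted p = 0.000689). The falls of ACLY, CS and DLAT were called with every scaling tried, at -0.53, -0.55 and -0.29 in TPM.

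The gene of the enzyme that activates acetate, ACSS2, was not called on its addition. It stood at 17.1, 17.6 and 16.2 CPM against 16.3, 14.5 and 14.7 CPM, ranges that overlap, with a 95% interval of the log2 difference from 0.01 to 0.32 (adjusted p = 0.0724), and 8 of the 18 fits that each left out 1 library did call it higher. SLC25A1, at 41.0, 36.7 and 38.6 CPM, was not called either (0.11 ± 0.055, adjusted p = 0.1), and its difference turned to -0.01 in total counts. In CPM both genes remained below every Sen (IR) library. ACSS3, the mitochondrial relative, rose from 7.16, 6.39 and 7.73 CPM to 15.7, 15.6 and 14.9 CPM, by 1.13 ± 0.10 (adjusted p = 4.79e-09), to a range of CPM that overlapped that of Prol. The overlapping LIN7A also rose, by 0.77 ± 0.070, from a mean of 29.2 to 49.7 CPM.

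The PDH genes split again. PDHB rose slightly, to 57.4, 54.5 and 56.1 CPM (0.14 ± 0.055, adjusted p = 0.0355), a call that was lost without CCCP replicate 1, CCCP replicate 2 or acetate replicate 1 and in TPM. Its log2 difference ran from 0.13 to 0.21 over the fits that each left out 1 library. PDHA1, at 44.9, 43.2 and 45.0 CPM, was not called (-0.05 ± 0.052), though it was called lower in TPM (-0.14, limma, adjusted p = 0.00803) and in total counts (-0.17, adjusted p = 0.00398). ACOT12 had 0, 6 and 9 counts with acetate and 0, 1 and 1 without. The groups overlapped, the rate ratio was 6.34 (exact 95% interval 1.47 to 57.1), and the call (adjusted p = 0.0363) was lost when any of 4 single libraries was left out. ACSS1 had 4, 3 and 6 counts.

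With acetate, most of the set stayed below senescent cells with mitochondria. Set directly against Sen (IR), the acetate group had 8 members lower and 1 higher of 9, when 65.9% of all genes tested were called (33.2% higher and 32.7% lower). ACSS2 (-0.86 ± 0.073), ACLY (-0.71 ± 0.066), PDHB (-0.59 ± 0.055), SLC25A1 (-0.45 ± 0.054), PDHA1 (-0.42 ± 0.052), DLAT (-0.35 ± 0.045) and CS (-0.19 ± 0.039) were lower, and ACSS3 was higher by 0.92 ± 0.10. The eighth lower member was ACOT12, with 0, 6 and 9 counts against 21, 7 and 4, ranges that overlap. Its call was lost in 5 of 18 fits that left out 1 library, which included leaving out Prol replicate 1, Sen (IR) replicate 1 or 2 and acetate replicate 1 or 2 (log2 differences from -1.93 to -0.72 over all 18), and with the replicate number as a block (edgeR, adjusted p = 0.0599). In TPM, where the median gene was 0.26 higher, the split was 2 higher and 4 lower (1 and 6 in total counts), and CS turned to 0.13 (limma, adjusted p = 0.000273).

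Transfected mtDNA moved 1 member past the threshold. In mtDNA over Sen (IR) + CCCP, 1 member rose and 0 fell of 9, against a background of 18.1% of all genes tested (10.7% higher and 7.4% lower). The member was ACSS3, at 11.5, 8.69 and 10.9 CPM against 7.16, 6.39 and 7.73 CPM, a difference of 0.56 ± 0.11 (adjusted p = 0.000866). LIN7A went the other way (-0.30 ± 0.074). ACLY was at 352, 358 and 343 CPM, CS at 201, 209 and 205 CPM and SLC25A1 at 35.8, 36.8 and 32.8 CPM, each range overlapping that of CCCP alone. Their 95% intervals ran from -0.12 to 0.15, from -0.11 to 0.05 and from -0.15 to 0.08. ACSS2, at 14.6, 12.9 and 14.3 CPM, had an interval from -0.29 to 0.04. The PDH genes overlapped as well, with PDHA1 at 44.6 to 47.3, PDHB at 47.8 to 50.6 and DLAT at 85.8 to 91.7 CPM. In TPM, CS was called lower by 0.10 (limma, adjusted p = 0.016), so that 2 members were called there.

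Acetate and mtDNA together were also compared with CCCP alone. Over Sen (IR) + CCCP, 3 members rose and 2 fell of 9 (61.7% of all genes tested were called, 30.3% higher and 31.4% lower). ACSS3 reached 16.6, 20.6 and 17.8 CPM, a difference of 1.37 ± 0.10 (adjusted p = 1.98e-10), the highest group mean of this gene. ACSS2, at 18.9, 20.7 and 16.8 CPM, was called higher than with CCCP alone (0.31 ± 0.077, adjusted p = 0.00144), with no overlap in CPM. It was not called in total counts (0.13, adjusted p = 0.126), and in TPM its libraries overlapped (15.4 to 18.4 against 14.4 to 16.2). Its difference from acetate alone was not called either (0.15 ± 0.075, edgeR, adjusted p = 0.219). ACLY, at 263, 307 and 266 CPM, was lower by -0.32 ± 0.066 (adjusted p = 0.000245) and CS, at 153, 157 and 151 CPM, by -0.44 ± 0.039 (adjusted p = 2.37e-09). ACOT12, with 12, 7 and 8 counts, was at 15.5 times its CCCP rate (exact 95% interval 3.90 to 135). PDHB (0.12 ± 0.056) and DLAT (-0.10 ± 0.045) missed the threshold at adjusted p = 0.0599 and 0.0595, and PDHB turned to -0.01 in TPM and -0.05 in total counts, the scales in which SLC25A1 (0.05 ± 0.056, not called) turned too.

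The change with acetate was then measured with mtDNA in both groups. In acetate + mtDNA over mtDNA, 4 members rose and 3 fell of 9 (57.4% of all genes tested, 27.4% higher and 29.9% lower). ACSS3 (0.81 ± 0.10), ACSS2 (0.43 ± 0.078), PDHB (0.18 ± 0.056) and ACOT12 were higher, and CS (-0.41 ± 0.039), ACLY (-0.33 ± 0.066) and DLAT (-0.12 ± 0.045) were lower. The DLAT call (adjusted p = 0.0327) was lost in 14 of 18 fits that left out 1 library. These comparisons share libraries with those above, so the likeness of their values is not independent evidence.

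With acetate present, mtDNA moved no member past the threshold. In acetate + mtDNA over acetate, edgeR called 0 of 9 members (12.6% of all genes were called, 6.57% higher and 6% lower), while 3 had an unadjusted p under 0.05: ACSS3 (0.24 ± 0.096, adjusted p = 0.0997), DLAT (0.10 ± 0.045, adjusted p = 0.169) and ACOT12 (27 against 15 counts, ratio 2.45, exact 95% interval 1.26 to 4.95). DESeq2's Wald test called 2 members, ACSS3 and DLAT, and 16.1% of all genes. The interaction of acetate and mtDNA, which tests whether the mtDNA change differed with acetate, was called for 0 of 9 members by edgeR (0.659% of all genes) and by DESeq2 (1.61%). By edgeR, 2 had an unadjusted p under 0.05: ACSS2 (0.27 ± 0.11, adjusted p = 0.333) and ACSS3 (-0.31 ± 0.14, adjusted p = 0.414).

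Ratios of members within a library do not depend on the scaling between libraries, and they compare the RNA of paired steps. They measure neither protein nor the use of a route, and are given as a description, because 3 libraries against 3 cannot go below p = 0.1 in an exact permutation test. The TPM of ACSS2 was 9.09% ± 0.459 (SD, n = 3) of that of ACLY in Prol, 7.09% ± 0.352 in Sen (IR) and 4.24% ± 0.391 with CCCP. With acetate it was 6.40% ± 0.228, with mtDNA 3.84% ± 0.305 and with both 6.54% ± 0.406. The RNA of ACSS2 was lowest relative to that of ACLY in the CCCP-treated groups without acetate, whose libraries (3.49% to 4.65%) all lay under those of the groups with acetate (6.14% to 6.95%).

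The citrate carrier and citrate synthase parted as well. The SLC25A1 level was 93.3% ± 1.89 of the CS level in Prol and 92.8% ± 7.18 in Sen (IR), and 52.6% ± 0.873 with CCCP. It was 77.6% ± 3.63 with acetate, 52.4% ± 3.00 with mtDNA and 73.6% ± 1.88 with both. No library of the CCCP-treated groups without acetate (48.96% to 54.5%) came near the 72.0% to 80.6% of the groups with acetate or the 86.4% to 101% of the groups with mitochondria. Within the PDH complex, DLAT stood at 122% ± 2.53 of PDHA1 in Prol and 153% ± 8.64 in Sen (IR). It stood at 177% ± 6.40 with CCCP, 159% ± 8.97 with acetate, 179% ± 8.80 with mtDNA and 168% ± 8.57 with both.

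**Figure D3:**
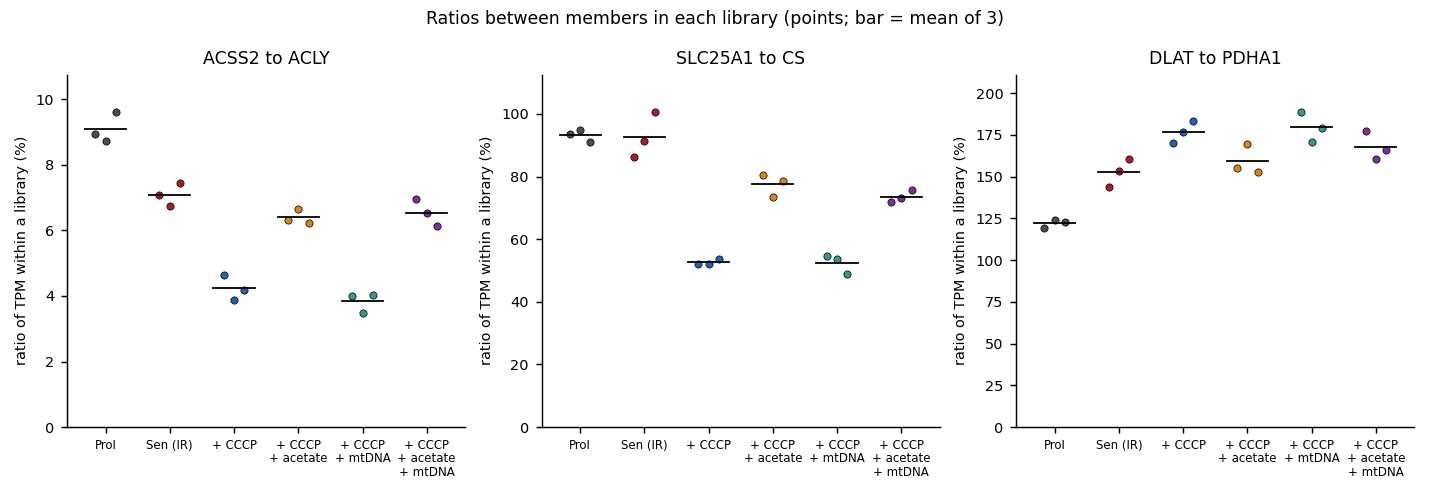
Ratio of the TPM of ACSS2 to ACLY, SLC25A1 to CS and DLAT to PDHA1 within each library, in percent, by group. Points are libraries and bars are means of 3; the first and second ratios are lowest in the CCCP-treated groups without acetate, where SLC25A1 is 48.96% to 54.5% of CS.

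Across the 18 libraries the members fell into unlike courses, described by Pearson's r of log2 CPM. The libraries share group, depth and scaling, so no p is given. ACSS2, SLC25A1, PDHA1 and PDHB varied together in CPM, with r from 0.908 (ACSS2 and PDHA1) to 0.971 (ACSS2 and PDHB). No r was computed on TPM, where PDHA1 took another course. In TPM PDHA1 differed by 0.06 in CCCP over Sen (IR) and by 0.16 in CCCP over Prol, and ACSS2 by -0.56 and -0.60. DLAT was unlike its PDH partners (r = -0.03 with PDHB and 0.27 with PDHA1), CS was weakly opposed to SLC25A1 (r = -0.20), and ACSS3 was opposed to DLAT (-0.75) and CS (-0.74). Over all genes tested, ERLIN1 (r = 0.984) and KDELR1 (0.972) were among the closest to ACLY. The closest to ACSS2 were RCN3 (0.990), LOXL4 (0.988) and SLC2A10 (0.987), and the closest to SLC25A1 were SERF2 (0.983), RTL8C (0.979) and MYL12B (0.977).

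The neighbouring steps were described through 3 lists. The first held 14 partners and regulators of the PDH complex and of pyruvate import, the second 15 other carriers, shuttles and sources (14 tested, SLC13A5 not), and the third 7 users of acetyl-CoA. In Sen (IR) over Prol, where 26.7% of all genes tested were called higher and 29.9% lower, 6 genes of the first list rose and 4 fell. PDHX, which anchors a subunit of the complex, rose by 0.89 ± 0.051, and PDP1, a phosphatase that activates it, fell by 0.79 on the log2 scale. PDK4, a kinase that inactivates it, had 2 to 10 counts in Prol and 31 to 52 in Sen (IR). In the second list 8 rose and 3 fell, with CPT1A, the carnitine palmitoyltransferase of the outer membrane (1.15 ± 0.064), and SLC25A20, the carnitine carrier (0.98 ± 0.074), at the top and ASPA, which frees acetate from N-acetylaspartate, lower (11 to 23 and 4 to 6 counts). ASPA passed the filter on low counts only through Prol and Sen (IR) + CCCP libraries, where its counts reached 23 and 15. Its calls are counted in the splits here and below, but are a description and no support for a change. Of the users, HMGCS1 of the sterol pathway rose (0.32 ± 0.081), and ACACA, which makes malonyl-CoA (-0.65 ± 0.079), and the thiolase ACAT2 (-0.62 ± 0.063) fell.

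With CCCP, SLC13A3, CRAT, CPT2 and HMGCS1 fell while PDK4 and LIAS rose. In Sen (IR) + CCCP over Sen (IR), 2 genes rose and 8 fell of 14 in the second list, and 0 rose and 3 fell of 7 users, but in TPM these splits were 5 and 5, and 3 and 2. Of all genes tested, 34% were called higher and 31.3% lower. SLC13A3, a plasma-membrane carrier of dicarboxylates (-1.02 ± 0.096), CRAT, which moves acetyl groups onto carnitine (-0.99 ± 0.083), and CPT2 (-0.94 ± 0.096) fell most in the second list. HMGCS1, the sterol-pathway user that had risen on irradiation, dropped by 1.92 on the log2 scale (SE 0.086), and the mitochondrial thiolase ACAT1 by 0.58. In the first list 4 rose and 4 fell (9 and 2 in TPM). PDK4 (1.29 ± 0.27) and LIAS, which makes lipoic acid (0.93 ± 0.10), rose, and PDK2, another inactivating kinase, fell (-1.19 ± 0.10). Against Prol the splits were 5 and 4, 4 and 9, and 0 and 6 in the order of the lists (9 and 1, 9 and 4, and 2 and 3 in TPM), against 35.1% of all genes higher and 34.1% lower.

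With acetate, 9 of 14 carriers and sources rose and 1 fell relative to CCCP alone, and 8 rose and 1 fell in TPM, when 28.8% of all genes tested were called higher and 28.3% lower. SLC13A3 (0.74 ± 0.096) and the cytosolic malic enzyme gene ME1 (0.63 ± 0.043) rose, whereas ASPA went from 3 to 15 counts to 0 to 1. Among the users 2 rose and 3 fell (2 and 4 in TPM). FASN, the fatty acid synthase (-0.77 ± 0.11), and ACAT2 (-0.56 ± 0.066) fell and the thioesterase ACOT8 rose (0.43 ± 0.085). In the first list 5 rose and 5 fell (3 and 5 in TPM), with PDK4 (0.62 ± 0.22) and PDK2 (0.60 ± 0.10) higher and LIPT2 lower (7 to 11 and 1 to 5 counts). LIPT2 passed the filter on low counts only through CCCP-treated libraries without acetate, where its counts reached 14. Its calls and those of ASPA are counted in the splits, but are a description and no support for a change. Against Sen (IR) the splits were 5 and 5, 5 and 8, and 1 and 5 (8 and 4, 8 and 1, and 1 and 4 in TPM), with 33.2% of all genes higher and 32.7% lower. PDK4 (1.92) and CPT1A (0.98) were higher there, and HMGCS1 (-1.55), CRAT (-0.96), ACAT1 (-0.84) and FASN (-0.82) lower.

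With mtDNA alone 4 of the 35 tested neighbours were called, when 18.1% of all genes tested were. Relative to CCCP, PDP1 rose (0.36 ± 0.054), and PDK1 (-0.33 ± 0.064), the brain-type carnitine palmitoyltransferase gene CPT1C (-0.21 ± 0.070) and ACAT2 (-0.22 ± 0.066) fell. With acetate and mtDNA together, 9 of 14 carriers and sources rose and 1 fell relative to CCCP (7 and 2 in TPM), with 30.3% of all genes higher and 31.4% lower. SLC13A3 (0.98 ± 0.097), ME1 (0.69 ± 0.043), PDP1 (0.73 ± 0.054) and HMGCS1 (0.59 ± 0.089) rose and FASN fell (-0.74 ± 0.11). In that comparison 3 genes of the first list rose and 5 fell, and 2 users rose and 3 fell. Relative to mtDNA alone, the splits were 5 and 4, 9 and 1, and 2 and 3 (27.4% of all genes higher and 29.9% lower). With mtDNA on top of acetate 3 of the 35 tested genes were called, against 12.6% of all genes: PDP1 (0.36) higher, and PDK1 (-0.23) and CPT1C (-0.31) lower. The interaction called 0 of 35 and 0.659% of all genes.

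**Figure D4:**
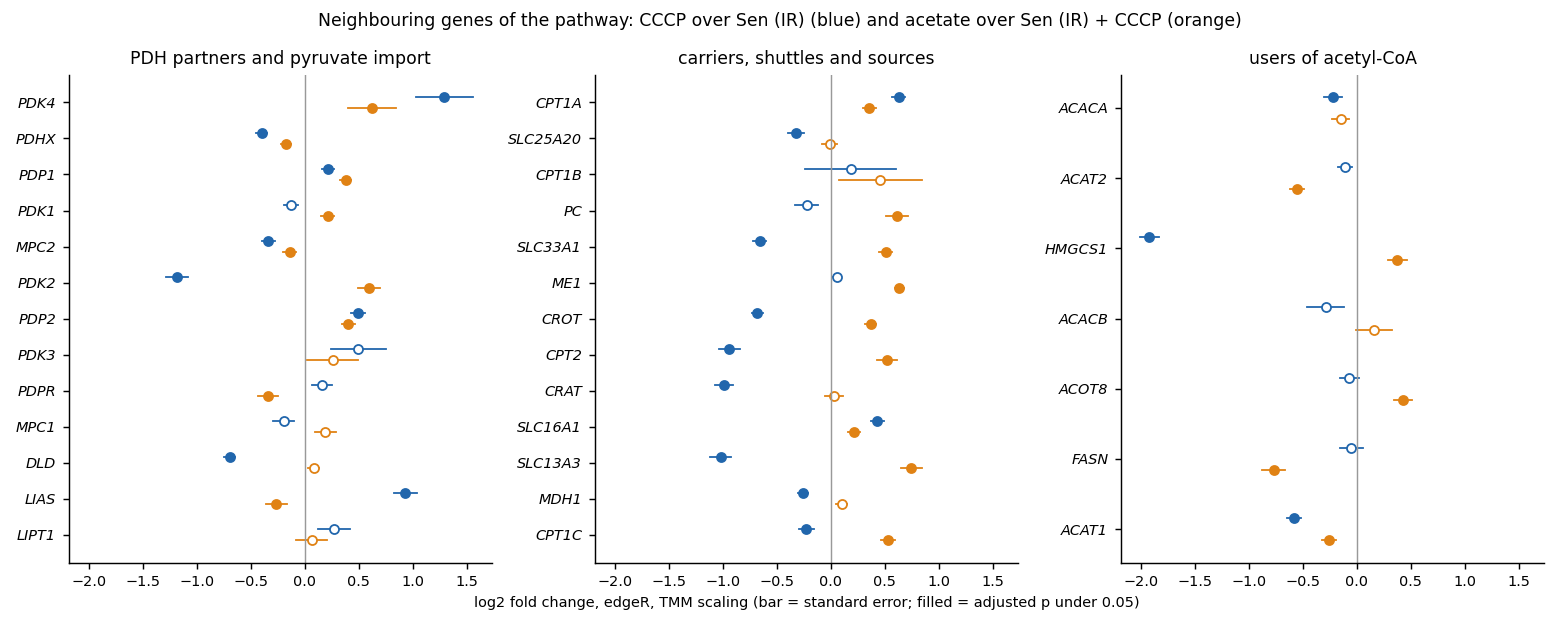
Log2 fold change (edgeR, TMM scaling, bars of the standard error) of the genes of the 3 neighbouring lists in CCCP over Sen (IR), in blue, and in acetate over CCCP, in orange, filled for an adjusted p under 0.05. ASPA and LIPT2 (few counts) and SLC13A5 (not tested) are not drawn; HMGCS1 falls most with CCCP, and in TPM the changes of MPC2, PDHX, MDH1, SLC25A20, CPT1C and ACACA, called lower with CCCP, turn to above 0, as do those of PDK1, MPC1, PC, ACAT2, ACACB, FASN and ACOT8, which were not called.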

How the data were processed

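Counts per gene were deposited by the authors for 18 libraries of 2 × 150-base paired reads (Trimmomatic 0.36, STAR 2.5.2b to GRCh38, featureCounts of Subread 1.5.2, per the labels). The deposited TPM were made by the authors per gene length, and the tool is not given in the sources used here. Libraries were grouped by their titles. Genes passing filterByExpr (16994 of 57500) were fitted in edgeR 4.0.16 (R 4.3.3) as 6 group means with TMM factors and tested by quasi-likelihood F tests with Benjamini-Hochberg adjustment at 0.05, in 10 comparisons, no replicate block. limma 3.58.1 tested log2(TPM + 1), and DESeq2 1.42.0 the counts. Changes in TPM are on that scale, which understates low genes. On simulated data edgeR recovered 78.79%, 95.52% and 100% of genes changed by 0.5, 1 and 2 (log2) in acetate over Sen (IR) + CCCP, over 16109 genes. The simulation changed 200 genes, all with a mean above 1 CPM, whereas 57.1% of genes were called in the data. Its recovery therefore does not give the power of the real test and does not cover ACSS1 or ACOT12. Low counts were compared by exact rate intervals. All members were named, and from each list at most 3 called genes per comparison with the largest change. Likeness was the highest Pearson's r over 18 libraries, and 1 gene among the 3 closest to ACLY is not reported here. No replicate pair differed by less than counting noise (lowest chi-square per degree of freedom 2.67). The pairs with Sen (IR) replicate 3 (24.1 and 19.6) and with acetate + mtDNA replicate 2 (25.4 and 22.4) differed most. Both libraries were kept, and the second held the 0.237% share of mtDNA genes, the highest of the CCCP-treated libraries. Total counts and median-centred TPM were added after the data were seen. Members and lists were chosen with earlier results of these data known.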

Additional observations from a re-analysis of the deposited data

How the results depend on the processing

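The number of members called stayed within 1.5 times of its value in 279 repeats and moved further in 11. The rule of a nominal DESeq2 p under 0.05 with a log2 change over 0.5 gave 1 member in Sen (IR) over Prol, 4 in CCCP over Sen (IR), 5 in CCCP over Prol, 2 in acetate over CCCP, 2 in both over CCCP, 1 in both over acetate, 2 in both over mtDNA and 5 in acetate over Sen (IR). DESeq2 at an adjusted p under 0.05 and median-centred TPM each called 2 members in both over acetate, and limma on TPM called 2 in mtDNA over CCCP. Over all genes that nominal rule called 5221, 7015, 7865, 5287, 1622, 6138, 1221, 5478 and 7166 genes in the order Sen (IR) over Prol, CCCP over Sen (IR), CCCP over Prol, acetate, mtDNA and both over CCCP, both over acetate, both over mtDNA and acetate over Sen (IR), where edgeR called 9628, 11088, 11755, 9709, 3071, 10487, 2136, 9748 and 11198. For the interaction edgeR called 112, DESeq2 273, the nominal rule 553 and the fit with no filter 413. The share of called genes that were higher went from 52.09% to 78.84% in TPM (70.56% in total counts) in CCCP over Sen (IR), from 50.75% to 78.79% (72.25%) in CCCP over Prol, from 50.42% to 73.81% (61.14%) in acetate over Sen (IR), from 50.49% to 39.54% (37.05%) in acetate over CCCP, from 59.07% to 34.02% (35.72%) in mtDNA over CCCP, from 49.07% to 36% (32.29%) in both over CCCP, and from 52.25% to 34.91% (29.12%) in both over acetate, where DESeq2 size factors gave 64.73%. In Sen (IR) over Prol and both over mtDNA, total counts gave 58.15% and 36.17% where TMM gave 47.14% and 47.85%.

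Directions of log2 differences turned mostly near 0. In TPM they became 0.054 (SLC25A1) and 0.064 (CS) in Sen (IR) over Prol; 0.15 (ACLY), 0.16 (ACSS3), 0.061 (PDHA1) and 0.27 (DLAT) in CCCP over Sen (IR); 0.47 (ACLY) and 0.16 (PDHA1) in CCCP over Prol; 0.13 (CS) in acetate over Sen (IR); -0.055 (ACLY) and -0.057 (DLAT) in mtDNA over CCCP; -0.086 (SLC25A1) and -0.0094 (PDHB) in both over CCCP; -0.021 (CS) and -0.013 (PDHA1) in both over acetate; and 0.010 (SLC25A1) in the interaction. Median-centred TPM gave 0.063 (SLC25A1) and 0.073 (CS) in Sen (IR) over Prol, 0.053 (ACLY) in CCCP over Prol, -0.0026 (ACLY) and -0.0038 (DLAT) in mtDNA over CCCP, 0.0074 (PDHB) in both over acetate, 0.019 (PDHA1) in both over mtDNA and 0.015 (SLC25A1) in the interaction. Total counts gave 0.070 (SLC25A1) and 0.079 (CS) in Sen (IR) over Prol, 0.055 (ACSS3) and 0.11 (DLAT) in CCCP over Sen (IR), 0.32 (ACLY) and 0.0091 (PDHA1) in CCCP over Prol, -0.014 (SLC25A1) in acetate over CCCP, -0.051 (ACLY) and -0.052 (DLAT) in mtDNA over CCCP, -0.13 (SLC25A1) and -0.055 (PDHB) in both over CCCP, -0.043 (CS) and -0.036 (PDHA1) in both over acetate, and -0.032 (SLC25A1) in both over mtDNA. DESeq2 gave 0.014 (PDHB, both over acetate) and 0.0019 (PDHA1, both over mtDNA), and its size factors in edgeR 0.014 and 0.0024. No filter gave -0.0038 (PDHA1, Sen (IR) over Prol), a minimum of 10 counts 0.0060 (CS, Sen (IR) over Prol) and -8.5e-05 (DLAT, mtDNA over CCCP), and fitting only the groups compared 0.016 (SLC25A1) and 0.026 (CS) in Sen (IR) over Prol. The minimum of 10 counts left 8 members, as ACOT12 did not pass. Fitting only the groups compared tested 9 members in Sen (IR) over Prol and in CCCP over Prol, and 8 in each other comparison. Leaving out the genes of mtDNA turned no direction and changed no call of a member. The cause of these differences was not tested.

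With 1 library left out at a time, sign changes occurred in 16 results, none of them called. In Sen (IR) over Prol the log2 difference ran from -0.068 to 0.011 for SLC25A1, -0.050 to 0.0023 for CS and -0.036 to 0.078 for PDHA1. In mtDNA over CCCP it ran from -0.059 to 0.027 for SLC25A1, -0.022 to 0.023 for PDHA1, -0.077 to 0.0018 for PDHB, -0.0047 to 0.061 for DLAT and -0.31 to 0.71 for ACOT12. PDHA1 ran from -0.046 to 0.018 in both over CCCP, -0.011 to 0.043 in both over acetate and -0.039 to 0.019 in both over mtDNA. In both over acetate CS ran from -0.0013 to 0.031 and PDHB from -0.033 to 0.0047. In the interaction SLC25A1 ran from -0.087 to 0.0043, PDHA1 from -0.0044 to 0.045 and PDHB from -0.015 to 0.063. The ACOT12 call in acetate over Sen (IR) was lost in 5 of 18 fits (range -1.93 to -0.72), among them without Sen (IR) replicate 1 or 2 and without acetate replicate 1 or 2. Calls were gained for SLC25A1 in acetate over CCCP in 3 fits (0.09 to 0.17), for PDHB in both over CCCP in 11 (0.12 to 0.20) and for DLAT there in 1 (-0.11 to -0.04).

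Replicate numbers are shared by the groups. Of 45 correlations of same-numbered deviations, 2 exceeded 0.1 (range -0.219 to 0.182), and 8 of 18 libraries correlated best with their own number. The main model therefore used no pairing, although deviations within groups of 3 libraries cannot exclude it. With the replicate number as a block, 4, 8, 8, 6, 1, 5, 0, 7, 8 and 0 members were called in the 10 comparisons, the single change being ACOT12 in acetate over Sen (IR) (-1.32, adjusted p = 0.0599 with the block, edgeR). Depth limits ACSS1 and ACOT12, whose counts of 0 to 21 a library leave intervals of several-fold.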
